A study of Mus musculus with 18 samples.

Results

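Axons find their way by reading cues on other cells and in the matrix, and 4 families of ligands with their receptors carry many of these cues. Here the 63 genes of these families were followed, out of 20807 protein-coding genes on the mouse autosomes (chromosomes 1 to 19) in the GENCODE vM21 annotation of mm10. They were chosen by gene symbol alone: 20 semaphorins and 7 plexins, 7 ephrins and 14 Eph receptors, 3 Slit and 4 Robo genes, and 4 netrins and 4 Unc5 genes. All 63 were kept in every count, whether or not a peak touched them.

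Bone marrow-derived macrophages (BMDM) were grown from the marrow of male mice for 7 days in medium with supernatant of L929 fibroblasts, a source of M-CSF, and were not stimulated. The mice were WT (labelled C57BL6), mdx (labelled Dmdmdx-4Cv, with mutated dystrophin) or mdxTLR4-/- (mutated dystrophin and no TLR4, an innate immune receptor, labelled Bl6/Bl10). Native chromatin cut with micrococcal nuclease was immunoprecipitated for H3K27me3, the repressive mark laid down by the Polycomb complex PRC2, and for H3K27ac, a mark of active promoters and enhancers. The H3K27me3 libraries were 2 ChIP and 2 input for each genotype. The H3K27ac libraries were 2 WT libraries, 2 mdx libraries, 1 mdxTLR4-/- library and 1 input library with no genotype given. Labelled ages ran from 12 to 17 weeks for H3K27me3 ChIP, 6 to 11 weeks for its inputs and 18 to 23 weeks for H3K27ac and its input, in the order WT, mdx, mdxTLR4-/-. They rise by 1 week from each sample to the next, which may be a fill of the label column and not true ages. As labelled, age, strain label and genotype cannot be told apart. The authors merged replicates before calling peaks with SICER2, which leaves 1 peak list for each mark and genotype, no spread between mice and no test between genotypes.

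Semaphorins signal through plexins, secreted class 3 semaphorins mostly with a neuropilin as the binding partner, and turn integrin adhesion and the actin skeleton off or on. Ephrins are held on the surface of the cell that shows them and bind Eph receptor tyrosine kinases on the neighbour, Slit proteins repel through Robo receptors, and netrins attract through Dcc or repel through Unc5. The same families guide vessels and leukocytes, and some members, such as the class 4 semaphorins and plexin-B2, are known from immune cells.

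Peaks are stretches of enriched windows of 200 bp joined across gaps of up to 600 bp, and the value of a peak is its count of ChIP reads. There were 28143 H3K27me3 peaks in the WT list, 41780 in the mdx list and 36488 in the mdxTLR4-/- list, with at least 27, 17 and 16 reads each. H3K27ac was sparse, with 15665, 12076 and 12493 peaks, at least 5 reads in each and a median of 10, 10 and 8. How deeply the libraries were sequenced is unknown. Where 3 values follow each other, they are in the order WT, mdx, mdxTLR4-/-. All 10 macrophage markers listed had H3K27ac within 5 kb of the start in WT and mdxTLR4-/- BMDM and 9 had it in mdx, with 108, 104 and 95 reads at Spi1, the myeloid master regulator. Csf1r was the marker with no mdx peak in that distance. Of 6 neuron, 4 endothelial, 4 fibroblast, 4 skeletal muscle and 4 T cell markers, 0, 1, 0, 1 and 0 had H3K27ac there in the WT list, 0, 1, 0, 0 and 1 in the mdx list and 1, 1, 0, 0 and 1 in the mdxTLR4-/- list. At Tlr4 the H3K27ac peaks held 44, 29 and 28 reads and H3K27me3 was absent from its window, values that do not check a deletion.

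The promoters below are the RefSeq sequence (GRCm38.p6) upstream of the start, 5′ to 3′ on the strand of the gene, with each CpG in capitals. The sets were picked for one state each, among the 50 members with a RefSeq promoter. Plxnb2 had H3K27ac within 5 kb of the start in every genotype. Ephb2 and Epha2 had the start covered in every genotype and the most reads in WT H3K27me3 peaks touching the window, counted whole. At Epha2 these were 5557 reads over 111.6 kb of peaks, with 1501 in the start peak, against 5357 in that of Epha8. Ntn5 and Robo4 had the largest differences in H3K27me3 between genotypes.
Plxnb2, chr15:89180789-89181038, minus strand: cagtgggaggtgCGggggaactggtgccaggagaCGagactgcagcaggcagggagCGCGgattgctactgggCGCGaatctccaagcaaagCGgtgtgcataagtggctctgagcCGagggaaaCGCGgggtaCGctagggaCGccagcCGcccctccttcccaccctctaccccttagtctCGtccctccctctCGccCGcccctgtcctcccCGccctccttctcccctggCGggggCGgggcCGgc
Ephb2, chr4:136836013-136836262, minus strand: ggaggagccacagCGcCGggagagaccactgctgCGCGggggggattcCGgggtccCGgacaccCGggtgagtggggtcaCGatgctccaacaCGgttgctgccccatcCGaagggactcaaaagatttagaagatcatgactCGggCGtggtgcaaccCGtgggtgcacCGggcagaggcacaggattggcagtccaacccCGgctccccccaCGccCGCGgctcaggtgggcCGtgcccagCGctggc
Epha2, chr4:141300971-141301220, plus strand: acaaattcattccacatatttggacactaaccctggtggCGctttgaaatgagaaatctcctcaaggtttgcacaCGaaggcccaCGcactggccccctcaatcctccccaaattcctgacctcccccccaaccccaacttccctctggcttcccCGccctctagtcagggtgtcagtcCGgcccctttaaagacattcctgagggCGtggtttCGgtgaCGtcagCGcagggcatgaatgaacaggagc
Ntn5, chr7:45683772-45684021, plus strand: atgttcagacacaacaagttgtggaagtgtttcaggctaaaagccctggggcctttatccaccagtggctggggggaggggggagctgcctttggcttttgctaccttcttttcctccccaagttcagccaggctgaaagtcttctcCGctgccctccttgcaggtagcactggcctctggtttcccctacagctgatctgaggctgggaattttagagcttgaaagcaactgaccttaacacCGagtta
Robo4, chr9:37401722-37401896, plus strand: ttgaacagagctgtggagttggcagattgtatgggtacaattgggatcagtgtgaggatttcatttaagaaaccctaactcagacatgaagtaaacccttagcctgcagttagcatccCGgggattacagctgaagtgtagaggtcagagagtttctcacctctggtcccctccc
The Plxnb2 stretch, reached by the H3K27ac peak in mdx and not in the other lists, and the Ephb2 stretch, next to a start under H3K27me3, each hold 20 CpG in 250 bases, and Epha2 holds 9. Ntn5 holds 2 in 250 bases and Robo4 holds 1 in 175 bases.

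Most of these genes carried H3K27me3 in BMDM of every genotype. A peak lay over the start of 45 of 63 members in WT, against 24.5% of all genes, of 47 in mdx, against 24.7%, and of 47 in mdxTLR4-/- BMDM, against 23.6%. That is 71.4%, 74.6% and 74.6% of the members. Some peak touched the window of 50 members in WT (79.4%, against 40.1% of all genes), 56 in mdx (88.9%, against 42.9%) and 52 for mdxTLR4-/- (82.5%, against 40.5%). This last count was not split by length, and the windows of members are longer, with a median of 52.3 kb against 23.6 kb for all genes. The start was covered in all 3 genotypes for 44 members (69.8%, against 21% of all genes). As in the Gene-based Patterns of the study, a gene was designated Increased (I) or Unchanged (U), here by whether 50% or more of its window, which starts 5 kb ahead of the gene body and ends 1 kb behind it, lay under peaks. Increased were 27 members in the WT list (17.5% of all genes), 26 in the mdx list (17.1%) and 25 in the mdxTLR4-/- list (15.6%), which is 42.9%, 41.3% and 39.7% of the members. The median coverage of the 63 windows was 26.5% in the WT list (order-statistic interval over genes 2.73% to 62.1%), 30.2% in the mdx list (5.89% to 59.7%) and 20.0% in the mdxTLR4-/- list (4.01% to 60.3%), and over all genes it was 0 in each list. Intervals are at the 95% level and describe counting error or variation among genes, never that among mice.

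**Figure D1:**
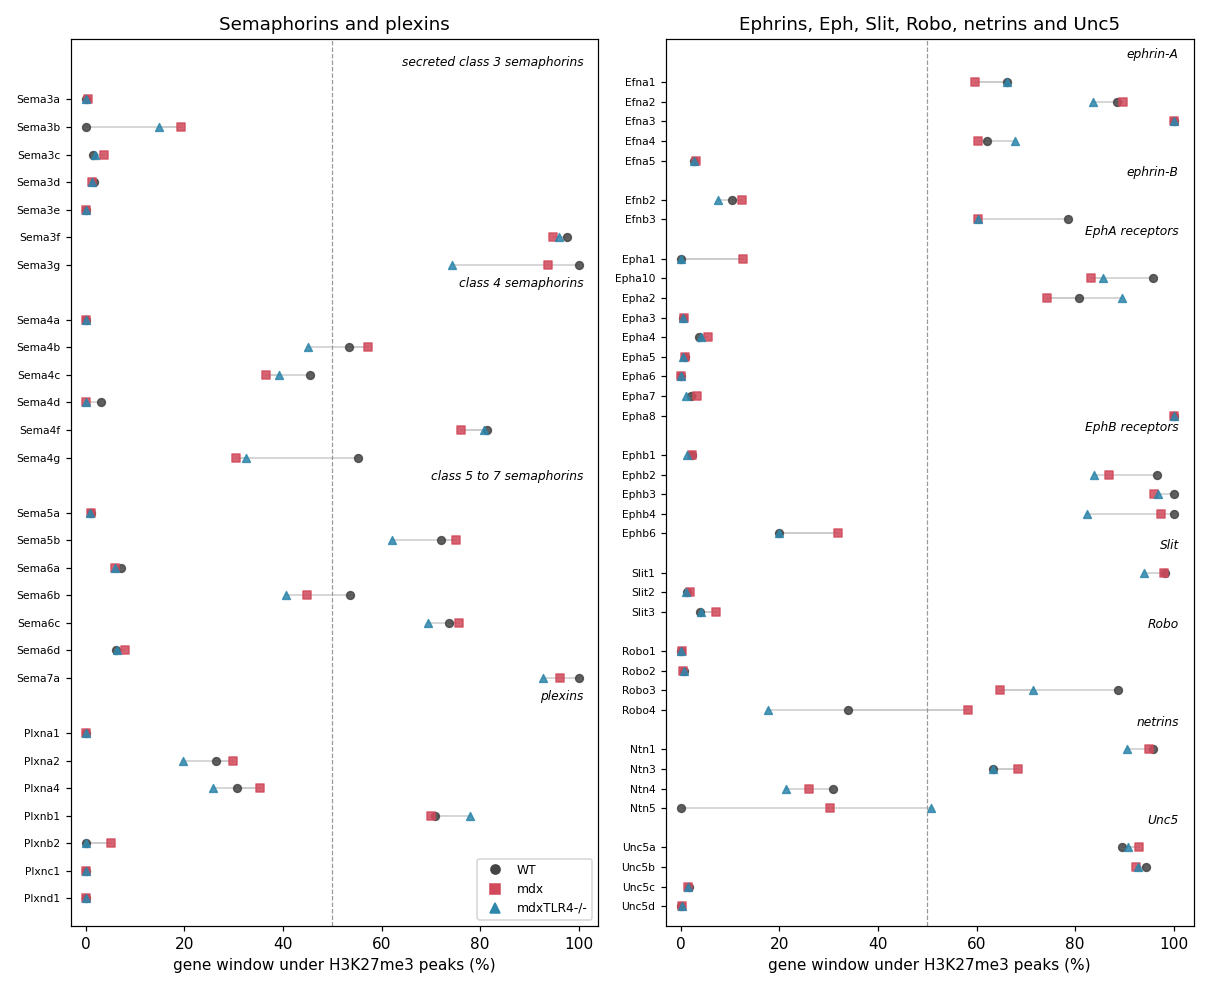
Share of each gene window under H3K27me3 peaks (%, x axis) for the 63 genes by family, with circles for WT, squares for mdx and triangles for mdxTLR4-/- BMDM, 1 peak list each, and the dashed line at 50%. Many members sit near either end of the axis, and others, such as Plxna4, Sema4c and Sema6b, lie in the middle. The 3 symbols of a gene mostly lie close together, and Ntn5, Robo4 and Sema4g are among those that spread widely.

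The share of starts covered was above that of all genes in each class of window length. With windows under 50 kb, 24 of 31 members had a covered start in WT (77.4%, against 22.7% of all genes of that length). Between 50 and 150 kb it was 6 of 8 (75%, against 26.2%), and at 150 kb or more it was 15 of 24 (62.5%, against 38.4%). Coverage of the whole window depended on length. Increased in WT were 21 of the 31 short genes (67.7%, against 19.7% of all genes of that length), 4 of the 8 intermediate genes (50%, against 13%) and 2 of the 24 long genes (8.33%, against 6.11%).

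Members were grouped by coverage of the window to describe 2 arrangements. In 15 members H3K27me3 covered the start and under 20% of the window in WT: Efna5, Efnb2, Epha3, Epha4, Epha5, Ephb1, Ephb6, Robo2, Sema3d, Sema5a, Sema6a, Sema6d, Slit2, Slit3 and Unc5c. Their start peaks had a median length of 4.4 kb (1.6 to 10 kb) in windows with a median of 331 kb. The 27 Increased members had windows with a median of 30.5 kb, and the start peaks of the 26 with a covered start had a median of 25 kb (5.8 to 155.8 kb). The exception was Sema6c, Increased in every genotype with 73.7%, 75.8% and 69.5% of its window covered and its annotated start outside the peaks. Read density in the start peak was 39.2 reads per kb (median) for the focal peaks and 45.8 for the Increased members. Because coverage of the window set the groups, the difference in peak length follows in part from the grouping. Between them were 4 members with a covered start and 20% to under 50% of the window, with a median start peak of 14.6 kb (4 to 31.6 kb).

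**Figure D2:**
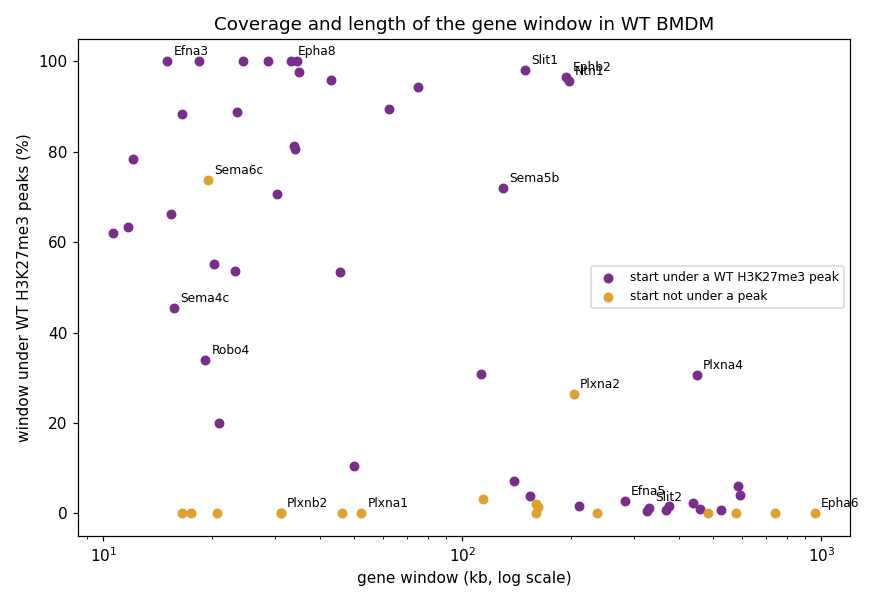
Share of the gene window under WT H3K27me3 peaks (%, y axis) against the length of the window (kb, log scale) for the 63 genes, coloured by whether a peak lies over the start. Ephb2, Ntn1 and Slit1 stand apart among the long genes, at 96.5%, 95.7% and 98.1%, while Slit2 and Efna5 lie near 0 with the start covered.

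Among the ligands, the autosomal ephrins carried H3K27me3 at every start. Ephrin-A proteins are tied to the membrane by a lipid anchor and ephrin-B proteins span it. All 5 ephrin-A starts and both autosomal ephrin-B starts were covered in each genotype, and 4 of 5 ephrin-A genes were Increased throughout. Efna3 (chr3:89313899-89322965) was covered at 100% in all 3 genotypes. It shares its peak with Efna4, 30.6 kb with 1504 reads in the WT list, 27.6 kb with 1603 reads in the mdx list and 31 kb with 1487 reads in the mdxTLR4-/- list, so these ligands are 1 domain and not separate observations. Efna4 had 62.1%, 60.3% and 67.8% of its window covered. Efna2, covered at 88.4%, 89.6% and 83.6%, and Efna1, at 66.2%, 59.7% and 66.2%, completed the set. Efna5, with a window of 283 kb, had a focal start peak and 2.73%, 3.15% and 2.61% coverage. Efnb2, the arterial ligand of Ephb4, had 10.4%, 12.4% and 7.63%.

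Semaphorins were divided. Of the 7 secreted class 3 genes, Sema3f and Sema3g were Increased in all 3 genotypes, Sema3f with 97.7%, 94.9% and 96.0% coverage, and the start of Sema3d was covered by a focal peak. Sema3e, the ligand of plexin-D1, had no H3K27me3 peak in any list. Sema3a had 0, 0.37% and 0%, and Sema3c 1.36%, 3.70% and 1.85%. Sema3b is described with the acetylated genes. Membrane-bound class 4 semaphorins, several of which act in lymphocytes, ranged from Sema4a, with no peak in any genotype, and Sema4d, with 3.15% in WT and 0 in the other lists, to Sema4f, with 81.4%, 76.1% and 80.8%. In classes 5 to 7, Sema7a, the lipid-anchored semaphorin that binds plexin-C1 and integrins, was covered at 100%, 96.2% and 92.7%. Sema5b was covered at 72.1%, 75.0% and 62.0%. Its paralogue Sema5a, and Sema6a and Sema6d, which bind A-type plexins, had the start covered in every genotype and at most 7.98% of the window under peaks.

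Slit1, a secreted repellent of growing axons (chr19:41600257-41743665), was nearly filled, with 98.1% of its 149 kb window covered in the WT list, 98.0% in the mdx list and 94.0% in the mdxTLR4-/- list. Its paralogues were covered at the start. Slit2 had a start peak of 4.2, 6.2 and 3.6 kb with 257, 333 and 201 reads, and Slit3 had 3.93%, 7.15% and 4.01% of its window covered. Netrin-1 was like Slit1. The 197 kb window of Ntn1 (chr11:68209364-68400823) was covered at 95.7%, 94.9% and 90.5%, with 7001, 8187 and 6256 reads in the peaks that touch it. Ntn3 was covered at 63.3%, 68.5% and 63.3%, and Ntn4, a netrin of basement membranes, at 30.9%, 26.1% and 21.3%.

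Among the receptors, median coverage in WT was highest for the 5 EphB genes, at 96.5% (2.28% to 100%), and lowest for the 7 plexins, at 0 (0 to 70.8%). The median of the 9 EphA genes, 2.00%, was close to that of the plexins. These medians of few genes also depend on window length. Starts of all 5 EphB genes lay under H3K27me3 in every genotype, and Ephb2, Ephb3 and Ephb4 were Increased throughout. Ephb2 (chr4:136647539-136835988) had the most reads of any member in the WT peaks that touch the window. The reads were 7147, 7453 and 6185, with 96.5%, 86.9% and 83.7% of its 194 kb window covered. Ephb3 had 100%, 95.9% and 96.7%. Ephb6, which lacks kinase activity, had 20.0%, 32.0% and 20.0%. Of 9 EphA genes, Epha2, Epha8 and Epha10 were Increased in each genotype, and focal peaks marked Epha3, Epha4 and Epha5. The smallest was at Epha3, with 1.6 kb and 45 reads in the WT list, 1.8 kb and 51 reads in the mdx list and 1.4 kb and 40 reads in the mdxTLR4-/- list. Epha7 had 2.00%, 3.24% and 1.12%, with the annotated start itself under a peak in mdx alone. Of the 2.5 kb on each side of that start, 48.6%, 92.6% and 28.6% lay under peaks. Epha6, the longest gene of the set with a window of 958 kb, had no H3K27me3 peak in any list.

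Epha8 (chr4:136929419-136956816) was covered at 100% in each genotype by a peak of 80, 78.8 and 78.6 kb with 5357, 6000 and 5533 reads. Between Ephb2 and Epha8, whose bodies are 93.4 kb apart, lie genes of the complement component C1q, which macrophages make. C1qb had 0% H3K27me3 coverage in each list, and H3K27ac peaks within 5 kb of its start held 196, 180 and 122 reads. C1qc had 33.1%, 30.9% and 23.8% coverage and 213, 101 and 132 H3K27ac reads. C1qa, the nearest of the trio to Epha8, had 85.6%, 72.0% and 58.5% coverage and 17, 101 and 10 H3K27ac reads. The starts of the trio are close, so 1 H3K27ac peak can count for more than 1 of them.

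For plexins, the start was covered in 2 of 7 genes in WT and in 3 of 7 in the other genotypes, and Plxnb1, the receptor of Sema4d, was the Increased member, at 70.8%, 70.1% and 78.0%. Plxna1, Plxnc1 and Plxnd1 had no H3K27me3 in any genotype, and Plxnb2 had a small peak (42 reads, 5.08% of the window) in mdx. Plxna4 lay between these, with 25, 34 and 35 separate peaks over 30.6%, 35.2% and 25.8% of its 450 kb window. Of the 6 members with no H3K27me3 peak in any genotype, 3 were plexins, the others being Sema3e, Sema4a and Epha6. That is 9.52% of the members, against 53.7% of all genes.

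Robo genes, the Slit receptors, included Robo3, covered at 88.8%, 64.7% and 71.4%, and Robo2 with a focal start peak of 3.2, 2.4 and 3 kb. Robo1 had 0 in the WT list, 0.19% in the mdx list and 0 in the mdxTLR4-/- list. Of the Unc5 netrin receptors, Unc5a was covered at 89.4%, 92.9% and 90.7% and Unc5b at 94.4%, 92.3% and 92.8%. Unc5c had a focal start peak, and Unc5d had 0, 0.17% and 0.17%.

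Few members differed between genotypes in designation. In the order WT, mdx, mdxTLR4-/-, 24 members were III (38.1%, against 14.7% of all genes) and 34 were UUU (54%, against 81.1%). From WT to mdx, 2 members lost the designation (3.17%, against 1.51% of all genes) and 1 gained it (1.59%, against 1.2%). From mdx to mdxTLR4-/-, 2 lost it (3.17%, against 2.15%) and 1 gained it (1.59%, against 0.62%). From WT to mdxTLR4-/-, 3 lost it (4.76%, against 2.39%) and 1 gained it (1.59%, against 0.543%). Of the 5 members with a difference, Sema4g and Sema6b were IUU (1.13% of all genes), Sema4b was IIU (1.25%), Robo4 was UIU (0.899%) and Ntn5 was UUI (0.245%). No member was IUI or UII, the patterns of 0.375% and 0.298% of all genes. The study designated genes by read intensity against input, and IUI was its predominant pattern among genes that differed between WT and mdx. Coverage by peaks is another measure, so these shares cannot be set against those of the study. Sema4b, Sema6b and Ntn5 lay near the limit of 50%. Just inside it were Sema4b at 53.3% in WT and 57.3% in mdx, and Ntn5 at 50.8% in mdxTLR4-/- BMDM. Just outside were Sema4c at 45.5% in the WT list, Sema6b at 45.0% in the mdx list and Sema4b at 45.0% in the mdxTLR4-/- list. Sema6b had 53.6% in WT and 40.7% in mdxTLR4-/- BMDM.

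Between WT and mdx BMDM, coverage was lower in mdx by any amount in 27 members (42.9%, against 20.3% of all genes), higher in 27 (42.9%, against 19.5%) and the same in 9 (14.3%, against 60.3%). Genes with no peak in either list count as the same. Among those with a peak in either list, coverage was lower in 27 of 57 members and 4219 of 9349 genes, and higher in 27 and 4049. Coverage was lower by 10 percentage points or more in 4 members (6.35%, against 5.79% of all genes): Sema4g, Robo3, Efnb3 and Epha10. Sema4g (chr19:44989101-45003397), a class 4 semaphorin, had 55.2% of its window covered in the WT list, 30.5% in the mdx list and 32.5% in the mdxTLR4-/- list. The peak over the Sema4g start was of like length in each, 6.8, 6.2 and 6.6 kb with 291, 353 and 287 reads, and a second WT peak in the window had no counterpart in the other lists. Both WT peaks together held 32.8 reads per kb, against 42.8 in the start peak, so the second peak was the sparser. Robo3 (chr9:37415669-37433246) likewise had a start peak in each list, of 15.8, 15.6 and 44.4 kb. A WT peak of 6.2 kb with 102 reads, which reaches into the window of Robo4, had no counterpart in the Robo3 window of the other lists. That WT peak was weak, with 16.5 reads per kb, near the 1st percentile of the WT list (15.5) and below its median (24.5). At Efnb3 (chr11:69554092-69560205) the start peak was 20 kb with 827 reads in the WT list, 7.2 kb with 316 reads in the mdx list and 7 kb with 293 reads in the mdxTLR4-/- list, and coverage was 78.5%, 60.3% and 60.3%. Epha10, which lacks kinase activity, had 95.8%, 83.2% and 85.6%. Ephb2, described above, was next in size, under 10 points. In the 4 genes the difference lay beside the start and not over it.

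Coverage was higher by 10 points or more in mdx than in WT in 5 members (7.94%, against 5.04% of all genes): Ntn5, Robo4, Sema3b, Ephb6 and Epha1. At Ntn5 (chr7:45684022-45694556), a netrin-family gene with few CpG in the promoter shown above, WT had no peak, mdx a start peak of 5 kb with 130 reads and mdxTLR4-/- one of 8.4 kb with 190 reads. Its coverage was 0, 30.2% and 50.8%. Robo4 (chr9:37401897-37415115), the Robo receptor of endothelium, had 33.9% in the WT list, 58.3% in the mdx list and 17.7% in the mdxTLR4-/- list. The start peak of Robo4 was 4, 4.8 and 3.4 kb with 103, 150 and 96 reads, and the reads of all peaks in its window were 205, 331 and 96. Epha1 had 0, 12.5% and 0, from a single mdx peak of 65 reads. The start peaks of Ntn5 in mdx and of Robo4 in WT held 26 and 25.8 reads per kb, near the medians over all peaks of those lists, 28.3 and 24.5. Over all peaks of the Robo4 window, density was 20.1, 29.6 and 28.2 reads per kb.

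From mdx to mdxTLR4-/- more members were lower than higher in coverage in the lists as deposited. Coverage was lower by any amount in 37 members (58.7%, against 26.9% of all genes) and higher in 14 (22.2%, against 13.3%), and it was the same in 12 (19%, against 59.9%). Among those with a peak in either list, it was lower in 37 of 56 members and 5595 of 9356 genes, and higher in 14 and 2758. By 10 points or more coverage was lower in 8 members (12.7%, against 8.03% of all genes) and higher in 2 (3.17%, against 2.6%). This direction was lost with equal numbers of peaks (3 lower, 3 higher), with denser peaks only (4 and 4) and with a limit of 20 points (1 and 1). Besides Robo4, Epha1, Ephb6 and Sema4b, the 8 were Sema3g, Ephb4, Sema5b and Plxna2. Sema3g (chr14:31217860-31230352) had 100%, 93.8% and 74.4%, and its start peak was 20, 11.4 and 7.8 kb long. Ephb4 (chr5:137350109-137378669), the venous Eph receptor, had 100%, 97.5% and 82.4%. Plxna2 had 26.5%, 29.8% and 19.7%, with the annotated start itself under a peak in mdx and mdxTLR4-/- BMDM and not in WT. Of the 2.5 kb on each side of that start, 82.3%, 100% and 86.3% lay under peaks, so WT had H3K27me3 beside it. Higher were Ntn5 and Epha2, the latter with 80.7%, 74.2% and 89.5%. The next in size, under 10 points, were Plxnb1, Efna4 and Robo3.

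Between WT and mdxTLR4-/- BMDM, coverage was lower by 10 points or more in 10 members (15.9%, against 8.82% of all genes) and higher in 2 (3.17%, against 2.67%), Ntn5 and Sema3b. It was lower by any amount in 37 (58.7%, against 25.9%), higher in 11 (17.5%, against 12.8%) and the same in 15 (23.8%, against 61.3%). Among those with a peak in either list, it was lower in 37 of 53 members and 5395 of 9066 genes, and higher in 11 and 2664. The comparisons share lists, so they are not separate evidence. Over all pairs of genotypes, 17 of the 63 members differed by 10 points or more at least once and 46 did not.

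**Figure D3:**
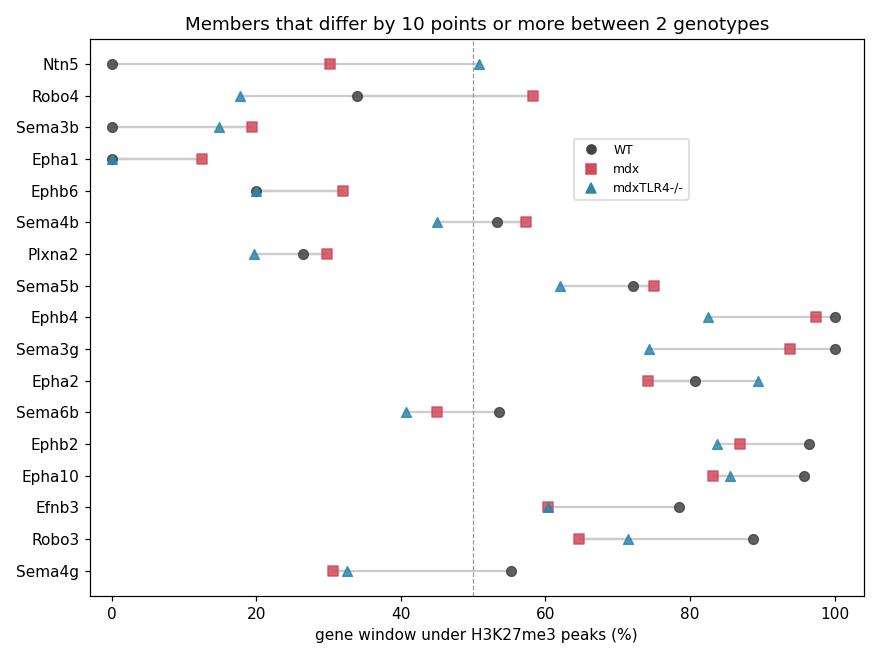
Share of the gene window under H3K27me3 peaks (%, x axis) in WT (circles), mdx (squares) and mdxTLR4-/- BMDM (triangles) for the 17 genes that differ by 10 points or more between at least 2 genotypes, in the order of the difference between mdx and WT. Ntn5 runs from 0 to 50.8% and Robo4 from 17.7% to 58.3%, while most of the others stay on 1 side of the dashed line at 50%.

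Some long domains consisted of more peaks in mdx or mdxTLR4-/- than in WT BMDM. For Ephb2 the window touched 7 peaks in the WT list, 17 in the mdx list and 16 in the mdxTLR4-/- list, for Ntn1 3, 6 and 10, and for Slit1 4, 4 and 9. At Slit3, where little of the window is covered, the 5, 15 and 7 peaks went with 3.93%, 7.15% and 4.01% coverage, so more peaks there went with more coverage. The start peak of Ntn1 was 155.8 kb with 5920 reads in the WT list, 44.8 kb with 3063 reads in the mdx list and 40.4 kb with 2289 reads in the mdxTLR4-/- list. That of Ephb4 was 82.4, 23.2 and 19.8 kb, and that of Sema7a 74.4, 37.8 and 19.4 kb. At Ntn1 the separate peaks together still covered at least 90.5% of the window, and the start peak of Ephb2 had 21.4, 21.4 and 21.2 kb. At Unc5b, a start that lay within an 82 kb peak in WT fell between peaks in mdx and under a 21.4 kb peak in mdxTLR4-/- BMDM.

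Of the 49 members with peaks in both lists, 19 had more peaks in mdx than in WT, which is 38.8% against 34.5% of all genes. Among the 44 members with the start covered in all 3 genotypes, the median length of the start peak was 16.2 kb in the WT list, 10.2 kb in the mdx list and 9.4 kb in the mdxTLR4-/- list, against 14.2, 12.6 and 11.2 kb over 4363 genes. It was shorter in mdx than in WT in 25 (56.8%, against 58.5% of all genes), shorter in mdxTLR4-/- than in mdx in 27 (61.4%, against 60.5%) and shorter in mdxTLR4-/- than in WT in 33 (75%, against 70%). The members were near all genes in these shares. The median H3K27me3 peak of the whole WT list had 5400 bp and that of either other list 3400 bp, and the part of this in the members' values was not tested.

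**Figure D4:**
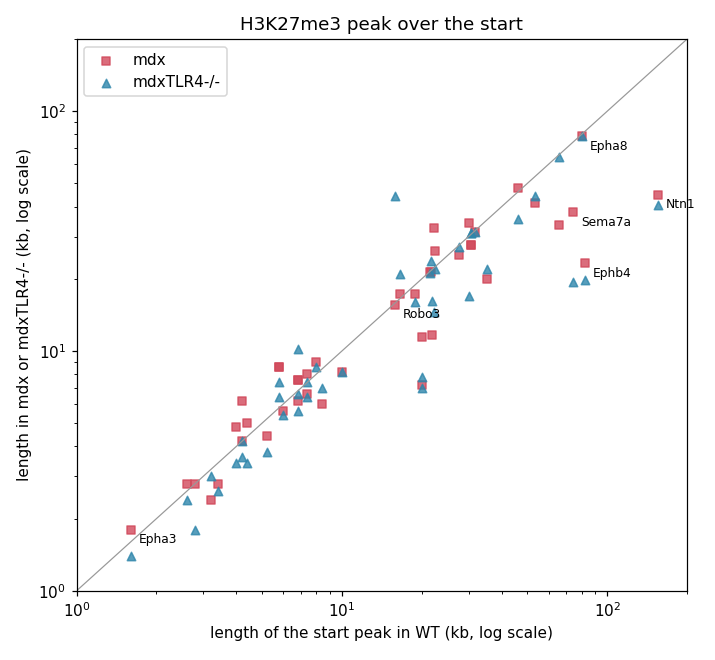
Length of the H3K27me3 peak over the start in mdx (squares) and mdxTLR4-/- BMDM (triangles) against its length in WT BMDM (kb, log scale on both axes) for the 44 genes with the start covered in all 3 genotypes, with the line of equal length. Ntn1, Ephb4 and Sema7a lie far below the line, and Epha8 lies on it at about 80 kb.

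Read density in the peaks was compared without scaling. Over 49 members with peaks in both lists, the median ratio of mdx to WT was 1.18 (interval over genes 1.12 to 1.22), and 43 members were denser in mdx (87.8%, against 90.6% of all genes). Over 52 members the median ratio of mdxTLR4-/- to mdx was 0.861 (0.826 to 0.918), with 8 denser (15.4%, against 8.39%). For mdxTLR4-/- to WT it was 1.00 (0.975 to 1.03), with 25 of 49 denser (51%, against 41.2%). Scaled to 1000000 reads in peaks, the mdx to WT median was 0.965 and the mdxTLR4-/- to mdx median 1.19, each on the other side of 1, so no direction is drawn from either. A ratio for a single gene also moves with the length called as peaks in each list. Unc5c had 1 focal peak of like length in WT and mdx, 236 reads over 6 kb and 337 over 5.6 kb, and an unscaled ratio of mdx to WT of 1.53 (exact interval from the counts 1.29 to 1.81). At Epha4 the peak held 300 reads over 5.8 kb in WT and 360 over 8.6 kb in mdx, so a ratio of 0.809 (0.692 to 0.946) goes with more reads in a wider peak. The start peak of Sema4g held 42.8, 56.9 and 43.5 reads per kb and that of Ephb1 46.9, 53.2 and 62.5.

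H3K27ac near the start was rare. A peak lay within 5 kb of the start of 5 members in the WT list (7.94%, against 32.9% of all genes), 6 in the mdx list (9.52%, against 28.3%) and 6 in the mdxTLR4-/- list (9.52%, against 30.4%). In all, 10 members had one in at least 1 genotype (15.9%, against 39.6%), and 2 had one in all 3 (3.17%, against 21.8%). The 2 were a receptor, Plxnb2, and a secreted ligand, Sema3b. These counts use the 5′-most start of each gene. Counted near any annotated transcript start, Plxnc1, Sema4a and Sema4d also had H3K27ac in every genotype.

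Plexin-B2 is a receptor of class 4 semaphorins. At Plxnb2 (chr15:89155549-89180788) the H3K27ac peak held 28 reads in the WT list, 26 in the mdx list and 16 in the mdxTLR4-/- list. It began 1388 bp downstream of the start in WT and 1788 bp downstream in mdxTLR4-/- BMDM and lay over the start in mdx, where it was 5 kb long against 2.2 and 1.8 kb. At Sema3b (chr9:107597674-107609229), which signals through neuropilins, the peak lay 2172 bp upstream of the start in each list, with 22, 12 and 13 reads. The Sema3b window also touched an H3K27me3 peak of 84 reads in mdx and one of 76 reads in mdxTLR4-/- BMDM, neither of them over the start, and none in WT.

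Within 5 kb of the 5′-most start, the other 8 of the 10 members had 16 reads or fewer and no peak in at least 1 list. Peaks of under 5 reads are in no list. Sema4c, on chromosome 1, had 16 reads in the WT list, no peak in the mdx list and 9 reads in the mdxTLR4-/- list. Plxnc1, the receptor of Sema7a, had 9, 7 and 0 reads and Sema4a 0, 8 and 5. In WT, Sema4a had H3K27ac further into the gene, with 8 reads at 6.48 kb and 8 at 15.2 kb. Plxna2 had a peak in mdx alone, with 7 reads. At Sema4b the mdx peak, with 13 reads, began 4960 bp from the start, just inside the limit of 5 kb, and the peaks of WT and mdxTLR4-/- at the same place, with 10 and 12 reads, began just outside it. Plxna1 had 7 reads in WT alone, and Efna1, with 6 reads, and Plxnd1, with 5 reads, had a peak in mdxTLR4-/- BMDM alone. The mdxTLR4-/- list of H3K27ac comes from 1 library.

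Both marks were counted together where an H3K27me3 peak lay over the start and H3K27ac within 5 kb. This held for 1 start in the WT list (1.59%, against 0.928% of all genes), 2 in the mdx list (3.17%, against 0.558%) and 2 in the mdxTLR4-/- list (3.17%, against 0.558%). These were Sema4c in WT, Plxna2 and, at the edge of the 5 kb, Sema4b in mdx, and Sema4c and Efna1 in mdxTLR4-/- BMDM. Peaks of the marks overlapped at Sema4c and Plxna2. At Sema4b the H3K27ac peak of mdx began at the base after the end of the H3K27me3 peak, so the peaks adjoined without overlap. At Efna1 the H3K27ac peak overlapped no H3K27me3 peak and lay 3659 bp upstream of the start. At Sema4c the H3K27me3 peak held 248, 286 and 262 reads over 7.4, 6.6 and 6.4 kb, covering 45.5%, 36.6% and 39.1% of the window, and the H3K27ac peaks of WT and mdxTLR4-/- lay at its downstream edge. Reads of the 2 marks come from separate libraries of many cells, so whether single cells carry both was not tested. Only Sema3e and Epha6 had neither an H3K27me3 peak in the window nor H3K27ac within 5 kb of the start in any list, 3.17% of members against 24.8% of all genes.

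Gene windows, with a median of 52.3 kb for members and 23.6 kb for all genes, are mostly longer than the stretch searched around a start. Inside them H3K27ac was found more often than at the starts, among members and over all genes alike. It was in 18 members in the WT list (28.6%, against 41% of all genes), 14 in the mdx list (22.2%, against 35.6%) and 19 in the mdxTLR4-/- list (30.2%, against 37.7%). Joined across genotypes, these peaks made 50 places in 24 members, of which 11 places in 8 members were in all 3 lists, 7 were in 2 lists and 32 in 1 list. Sema4d (chr13:51685529-51793747), the class 4 semaphorin known from lymphocytes, had the most reads. Its place 58.2 kb into the gene overlaps an exon, lies within 5 kb of another annotated transcript start of the gene, and held 73 reads in the WT list, 59 in the mdx list and 46 in the mdxTLR4-/- list. A second Sema4d place, 51.4 kb into the gene, held 22, 17 and 16 reads. At the 5′-most start of Sema4d there was no H3K27ac peak within 5 kb, so that a count at that start alone misses it.

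Most other shared places were intronic. An intron of Ntn4 (chr10:93640681-93747207) had 49, 25 and 21 reads 48.1 kb from the start, although a peak of H3K27me3 lay over that start in each genotype. An intron of Plxna4 had 41, 22 and 25 reads at 76.6 kb and 9, 7 and 13 reads at 108.4 kb, and an intron of Plxna2 had 34, 22 and 20 reads at 54.0 kb. The places at 48.1, 76.6 and 54.0 kb touched no H3K27me3 peak in any list, so these 3 genes held both marks in separate stretches of the same body. The place at 108.4 kb in Plxna4 met H3K27me3 peaks in mdx and mdxTLR4-/- BMDM and none in WT. Plxnc1 (chr10:94790866-94944835) had a shared place at 26.8 kb, with 22, 9 and 26 reads, and another at 21.4 kb, with 13, 8 and 6 reads, and no H3K27me3. Sema4b had 10, 13 and 12 reads at 5.86 kb. Places in 1 list had at most 14 reads, and very long genes such as Robo1 and Epha6 held several of them, none in all 3 lists.

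**Figure D5:**
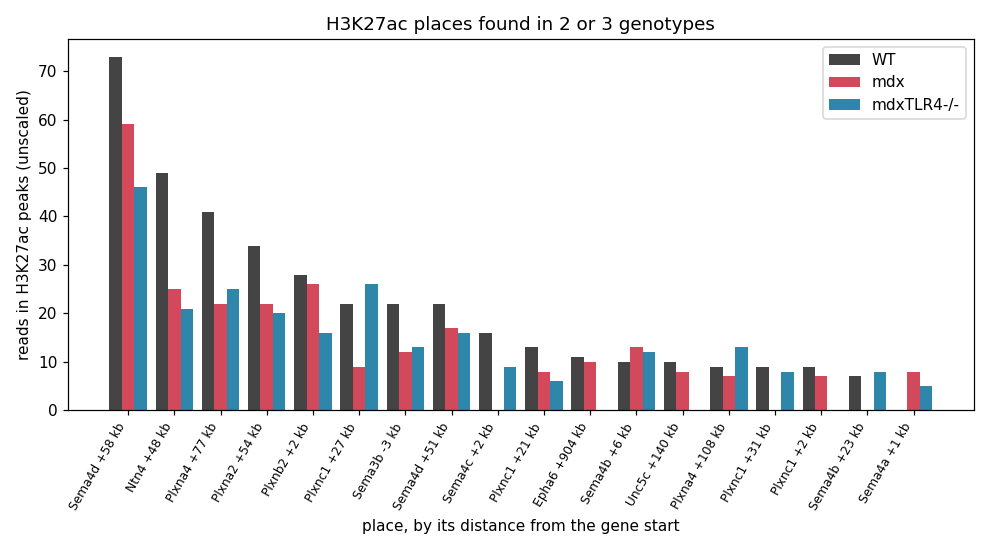
Reads in H3K27ac peaks (unscaled counts, y axis) at the 18 places in the gene windows that were found in 2 or 3 genotypes, named by gene and distance from the start, with bars for WT, mdx and mdxTLR4-/- BMDM, 1 list each. Sema4d at +58 kb is the highest in each list, with 73, 59 and 46 reads, and a missing bar means that no peak was called there.

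Promoter sequence was compared for the 50 of 63 members with a RefSeq promoter (300 bases around the start) within 1 kb of the annotated start. The median CpG ratio, observed to expected from base content, was 0.688 for the members and 0.660 over 13553 genes. For the 38 of these members with H3K27me3 over the start in all genotypes it was 0.683, against 0.554 over the 2859 such genes, and for the 9 with H3K27me3 over the start in none it was 0.723, against 0.713 over 9847 genes. The difference between covered and uncovered members was not tested. Epha8 had the most CpG, 56 in 300 bases. The letters GAGGAAGT, the core of the PU.1 motif, searched on both strands, were in 0 of 50 members and 3.34% of all promoters, and the AP-1 letters TGANTCA were in 1 member, Sema4c (2%, against 6.55%).

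Other genes of the same pathways were counted in the same way. Of 26 other ligands and co-receptors, the start was covered by H3K27me3 in 17, 16 and 16 (65.4%, 61.5% and 61.5%, against 24.5%, 24.7% and 23.6% of all genes), shares not far below those of the members. H3K27ac lay within 5 kb of the start in 4, 7 and 5 of them (15.4%, 26.9% and 19.2%, against 32.9%, 28.3% and 30.4%). Nrp1 and Nrp2, the neuropilins that bind class 3 semaphorins, had H3K27ac in every genotype, with 48, 57 and 27 reads at Nrp1 and 32, 15 and 26 at Nrp2, and Cxcr4, the receptor of the chemokine Cxcl12, had 16, 23 and 23. Cxcl12 was covered by H3K27me3 at 95.8%, 100% and 100%, and Ntng2 and Rgma were covered at over 90% in each list. Of 46 cytoplasmic effectors, H3K27ac was near the start in 18, 17 and 17 (39.1%, 37% and 37%) and H3K27me3 covered the start in 15, 16 and 17 (32.6%, 34.8% and 37%), shares nearer to those of all genes. The actin regulators Cfl1, with 53, 37 and 41 reads, and Rock2, with 59, 42 and 38 reads, were acetylated in each genotype, as were Rac1 and Rhoa. The neuronal collapsin-response genes Dpysl4 and Dpysl5 had H3K27me3 over at least 96.4% of the window in each list, and their relative Dpysl2 had H3K27ac with 18, 26 and 9 reads and no H3K27me3.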

How the data were processed

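The deposited data are 6 peak lists. According to the submitters' processing notes and the methods, base calling used CASAVA 1.8, adapters were trimmed with cutadapt 1.15, reads were mapped to mm10 with Bowtie2 2.3.4, replicates were merged, and peaks were called against input with SICER 2.0 (window 200 bp, gap 600 bp, FDR 0.01). Each value is a count of ChIP reads per peak that the authors deposited without scaling for depth or length and without input subtraction, which was checked on the values (whole numbers, 200 bp grid). Merged lists allow no test between genotypes, and depth is unknown, so intervals (order-statistic for medians, exact Clopper-Pearson for read ratios) cover counting error or the spread over genes only.

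Coverage of gene windows, peaks over the 5′-most annotated start, H3K27ac within 5 kb and read density were computed with Python 3.11.15, pandas 2.3.3, numpy 2.4.6 and scipy 1.17.1, and figures were drawn with matplotlib 3.10.9, over all 20807 genes for the background. The procedure was tested on simulated lists, in which 2000 of 2000 windows were recovered. Density is the count of reads in all peaks that touch a window per kb of those peaks. RefSeq promoters matched 50 of 63 members. The members, marker lists, pathway lists and tests were chosen with earlier results of these data known.

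Named genes were those with a designation that differed, the 5 largest differences each way from WT to mdx and from mdx to mdxTLR4-/- BMDM, those with H3K27ac near the start and those without H3K27me3. The 5 with most reads in touching WT H3K27me3 peaks (Ephb2, Ntn1, Slit1, Unc5b and Epha2) were also named. Further members and the H3K27ac places were named after their values were seen. Alternatives were other peak thresholds, equal numbers of peaks, minimum lengths, windows, limits and scalings. Signal over input and expression were not analysed here.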

Additional observations from a re-analysis of the deposited data

How the results depend on the processing

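No paired analysis was possible because replicates were merged before the peaks were called, and for the same reason no replicate could be left out. Of 106 alternative values, 65 stayed within the set range, 40 moved and 1 reversed. The density ratio of mdxTLR4-/- to mdx, given at the end of this paragraph, was not among the 106. With 2.5 kb on each side of the start in place of the gene window, Increased members numbered 45 in the WT list, 47 in the mdx list and 44 in the mdxTLR4-/- list and median coverage was 89.8%, 90.5% and 83.6%. With this window, differences of 10 points or more numbered 7 lower and 9 higher from WT to mdx, 4 higher from mdx to mdxTLR4-/- and 4 higher from WT to mdxTLR4-/-, and 5 designations differed between mdx and mdxTLR4-/- BMDM. A limit of 20 points left 2 lower and 2 higher from WT to mdx, 1 and 1 from mdx to mdxTLR4-/-, and 2 and 1 from WT to mdxTLR4-/-. With equal numbers of peaks, 2 were higher from WT to mdx, and 3 were lower and 3 higher from mdx to mdxTLR4-/-. With denser peaks only, 1 was higher from WT to mdx, and 4 were lower and 4 higher from mdx to mdxTLR4-/-. H3K27ac near the start was counted in 1 (WT) and 2 (mdx) members with upstream peaks only, in 2 (WT) and 3 (mdxTLR4-/-) within 1 kb, and in 3, 3 and 2 with peaks of 10 reads or more. Both marks at the start then numbered 1 in mdx and 1 in mdxTLR4-/- BMDM within 1 kb, and 1 and 0 with 10 reads or more. With alternatives chosen after seeing the data, H3K27ac was in 18, 14 and 19 gene windows and near any annotated start in 9, 7 and 9 members. The median density ratio of mdx to WT, 1.18 unscaled, was 0.965 when scaled to reads in peaks and 1.01 when divided by the 1st percentile of density, that of mdxTLR4-/- to mdx, 0.861 unscaled, was 1.19 and 1.10 and so reversed under both, and that of mdxTLR4-/- to WT was 1.14 and 1.10. The causes were not tested.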
